A study of Mus musculus with 8 samples.

Results

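The genes described here are 10 members of the Notch pathway, the receptors Notch1, Notch2 and Notch3, the ligands Dll1, Jag1 and Jag2, the target repressors Hes1, Hey1 and Heyl, and Numb, which antagonizes the receptors. They are 10 of the 22367 protein-coding genes in the GENCODE annotation of mm9, and were chosen by name. Every interval in the deposited lists of myogenin and p300 peaks that overlapped a gene body, or the 50 kb on either side of it, was assigned to that gene. C2C12 cells, a myoblast line from C3H mice that fuses into myotubes in differentiation medium, were differentiated for 24 h in that medium without (control) or with 50 nM bexarotene, and chromatin was immunoprecipitated for myogenin or for p300. The series holds 8 samples, of which 4 have a list of peaks, each made from 1 library, so there are no replicates, no test between conditions could be made, and 1 cell line stands for the myoblast. The lists give the position and length of each peak without tag counts or scores, and hold no measure of its strength.

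Notch receptors are cleaved when a Delta or Jagged ligand on a neighboring cell engages them, and the released intracellular domain enters the nucleus and joins the DNA-binding protein Rbpj and a Mastermind coactivator, which recruits p300. The Hes and Hey repressors are the best known targets of that complex, and in muscle the pathway keeps satellite cells and myoblasts from differentiating. Myogenin is a basic helix-loop-helix factor of terminal muscle differentiation that binds E-boxes, p300 is a histone acetyltransferase used to mark active enhancers, and bexarotene is a synthetic agonist of the retinoid X receptor (RXR).

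Near the 10 genes, 103 intervals were found. The myogenin lists contributed 23 intervals in control and 24 in bexarotene, and the p300 lists 38 and 18. Myogenin intervals were thus about as many in both conditions (a ratio of bexarotene to control of 1.04, against 1.12 for the whole lists), whereas p300 intervals were fewer in bexarotene (0.474, against 0.415 for the whole lists). The near-equal myogenin counts depended on Notch1, which had 10 in control and 6 in bexarotene. Without it the counts were 13 in control and 18 in bexarotene. For myogenin the whole lists held 5912 intervals in control and 6642 in bexarotene, and for p300 they held 22051 and 9154, so that the p300 control list stood apart in size, and the depth of that library is not given in the sources used here. The loss of p300 intervals at these genes and in the whole list cannot be told apart from a difference between 2 libraries.

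A myogenin interval lay within 50 kb of 8 of the 10 genes in control, where 32.3% of all protein-coding genes had one, and of 9 in bexarotene, where 32.9% had one. For p300 the counts were 8 in control (53.8% of all genes) and 7 in bexarotene (35.2%). The windows of the 10 genes had a median length of 128 kb against 115 kb for all genes, so the counts were also set against length. Myogenin intervals numbered 15.8 per Mb in control and 16.5 per Mb in bexarotene near the 10 genes, against 3.13 and 3.45 per Mb over all gene windows, and p300 intervals 26.1 and 12.3 per Mb against 10.5 and 4.32. Without Notch1 the myogenin values were 10.0 and 13.8 per Mb and the p300 values 25.4 and 13.1 per Mb. As a check of the cells, 8 of 10 muscle marker genes had a myogenin interval in control and 7 in bexarotene, among them Myod1 and Acta1, whereas 2 and 1 of 10 markers of other cell types did, and the muscle genes Ckm and Mef2c had none. These gene lists, like the 10 genes, were chosen with earlier results of these data known.

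**Figure D1:**
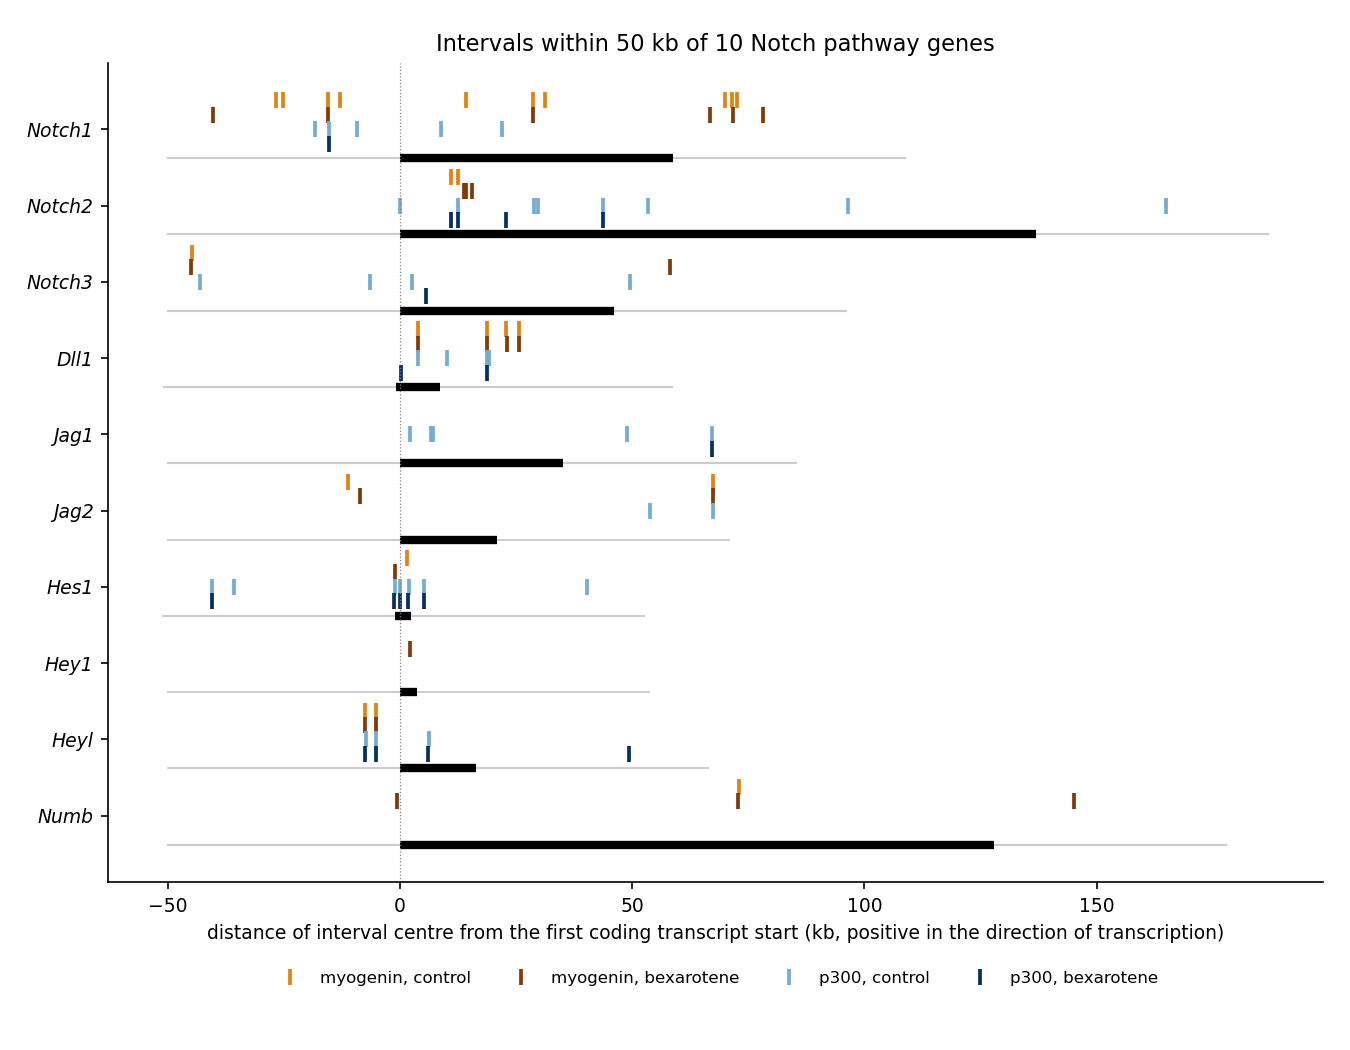
Position of every interval near the 10 genes. The x axis gives the distance of the interval's center from the start of the first protein-coding transcript in kb, positive in the direction of transcription, each tick is 1 interval in the color of its list, the black bar is the gene body and the grey line the 50 kb on either side. Myogenin and p300 ticks align in columns upstream of Heyl and Notch1 and downstream of Dll1, and Jag1 has p300 ticks without a myogenin tick.

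Overlapping intervals of a factor, by at least 1 bp, were merged into regions and called shared, control-only or bexarotene-only. The 35 myogenin regions comprised 12 shared, 11 control-only and 12 bexarotene-only regions, and the 43 p300 regions comprised 13 shared, 25 control-only and 5 bexarotene-only regions. The bexarotene-only share of the myogenin regions was 34.3% (95% Wilson interval 20.8 to 50.8) against 38.2% of all myogenin regions, and the control-only share of the p300 regions was 58.1% (43.3 to 71.6) against 62.1%, so in both cases the genome-wide share lay within the interval, which covers counting error only. A shared myogenin region was found at 6 of the 10 genes (17.5% of all genes), and a shared p300 region also at 6 (27.7%).

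Myogenin intervals called in 1 condition were mostly of the smallest length. Of the 11 control-only myogenin intervals 10 had the smallest length found in the list (172 bp), and of the 12 bexarotene-only intervals 9 had the smallest length there (168 bp), but only 1 and 2 of the 12 shared intervals did in control and bexarotene. In the whole myogenin lists, the smallest length was seen in 75.6% of control-only and 69.7% of bexarotene-only intervals, and in 34.4% and 26.1% of shared ones. Among p300 intervals, the smallest lengths (159 and 158 bp) were seen in 12 of 25 control-only intervals and 4 of 5 bexarotene-only intervals, against 1 of 13 shared intervals in either list, where the whole p300 lists had 46.2% and 80.5%, and 9.72% and 40.8% of shared ones. Whether such peaks would recur in another library of the same condition is unknown. At shared p300 regions the control interval was the longer one in 12 of 13 cases near these genes and in 90.1% of 7198 cases genome-wide. This is the same direction as the difference in list size. For myogenin, where the control list was the smaller, the control interval was still the longer one in 9 of 12 cases. Genome-wide it was longer in 54.0% of 2988 cases, with median lengths of 226 bp in control and 254 bp in bexarotene. A link between length and list size was not tested.

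**Figure D2:**
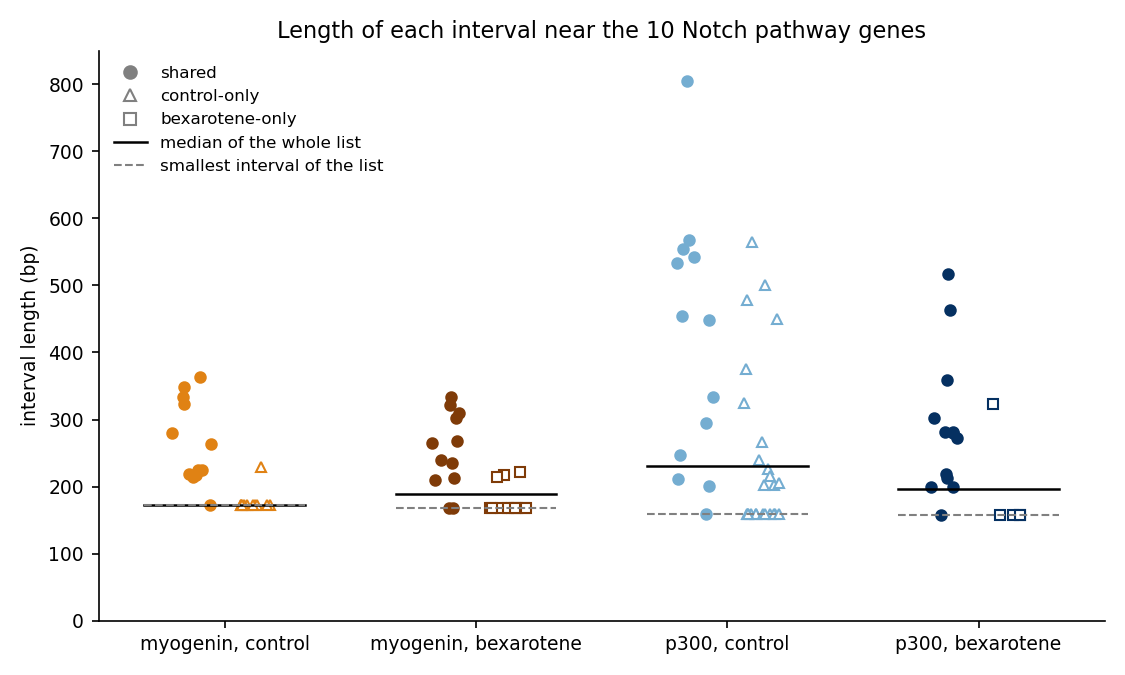
Length of each interval near the 10 genes in bp, by list. Filled circles are intervals of shared regions, open triangles control-only and open squares bexarotene-only, with a black line at the median of the whole list and a dashed line at its smallest interval. Of the open symbols of the myogenin lists, 10 of 11 in control and 9 of 12 in bexarotene lie on the dashed line, and the longest interval is a shared p300 interval of 805 bp in control, downstream of Hes1.

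Of the 10 genes, Notch1 carried the most myogenin intervals in both lists when intervals were assigned by the 50 kb window. Most of its bexarotene intervals lay nearer to the coding start of Sec16a or Egfl7. By nearest coding start, Notch1 still carried the most in control, but Dll1 carried more than Notch1 in bexarotene. Notch1, the receptor whose gene lies at chr2:26313423-26372183 on the minus strand, had 10 myogenin intervals in control and 6 in bexarotene, and 5 and 1 p300 intervals. As many myogenin intervals in control, or more, were found at 0.237% of all genes. This rank includes intervals nearer to Sec16a. It was not adjusted for the length of the window, 159 kb at Notch1 against a median of 115 kb for all genes. Of its 13 myogenin regions 7 were control-only, and 5 lay downstream of the gene at Sec16a, the nearest start of a coding transcript, so that they are assigned to Notch1 by distance alone. A bexarotene-only region 40.3 kb upstream was likewise nearer to the start of Egfl7. Its longest myogenin interval (229 bp) was control-only and lay in intron 1, 14.3 kb from the first start and 1461 bp from an inner coding start, and its longest merged region, 1 of the 5 at Sec16a, joined intervals of 215 bp in control and 168 bp in bexarotene. Also inside the gene, a shared region in intron 1, 28.7 kb from the first start and 15922 bp from an inner one (218 bp in control and 210 bp in bexarotene), held a pair of E-boxes with 15 bp between them. E-box here means CAGCTG, or the letters CACCTG on either strand, the cores that myogenic factors prefer. The pair is shown in capitals on the plus strand of mm9, as are E-boxes of other regions below.
Notch1 intron 1, chr2:26343382-26343438: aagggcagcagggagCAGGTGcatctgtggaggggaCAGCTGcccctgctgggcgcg
Upstream of the gene, 15.4 kb from the first start, all 4 lists had an interval at the same place (myogenin 217 bp and 168 bp, p300 295 bp and 280 bp, control first), which was the sole p300 interval of Notch1 in bexarotene. It held a pair of E-boxes 140 bp apart, neither within 50 bp of the center of the myogenin region.
Notch1 upstream, chr2:26387519-26387700: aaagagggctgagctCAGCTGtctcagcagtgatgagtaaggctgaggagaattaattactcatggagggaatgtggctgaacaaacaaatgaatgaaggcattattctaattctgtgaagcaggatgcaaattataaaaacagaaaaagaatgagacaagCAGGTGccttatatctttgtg
The other 4 p300 regions were control-only, the longest of them 325 bp in intron 1.

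Notch2 (chr3:97817461-97954290, plus strand) had 2 myogenin intervals in control and 3 in bexarotene, and 8 and 4 p300 intervals. All 5 of its myogenin regions lay in intron 1, between 10.9 kb and 15.48 kb from the start, and none was shared. The 2 control-only regions, each of 172 bp, came first, and the 3 bexarotene-only regions, the longest of 221 bp, followed. Both control-only regions overlapped p300, at 10.9 kb with a bexarotene-only p300 interval of 158 bp and at 12.48 kb with a p300 region called in both conditions (159 bp and 158 bp). The myogenin region at 12.48 kb held 3 E-boxes with gaps of 1 and 0 bp. Since 4 of the 5 myogenin intervals were at the smallest length of their list, this succession along the intron rests on peaks of the smallest length. The longest p300 interval of Notch2 was control-only (565 bp, intron 1, 29.76 kb), the longest shared one lay in intron 2 (533 bp in control and 464 bp in bexarotene, 43.63 kb), and a control-only interval of 375 bp covered the promoter, 22 bp before the start.

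Notch3, a receptor of smooth muscle and satellite cells (chr17:32257765-32303825, minus strand), had 1 and 2 myogenin intervals and 4 and 1 p300 intervals. The longest p300 interval of Notch3 (501 bp) was control-only and lay in intron 1, 2.54 kb from the start, and the sole bexarotene interval (158 bp) lay in intron 2.

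**Figure D3:**
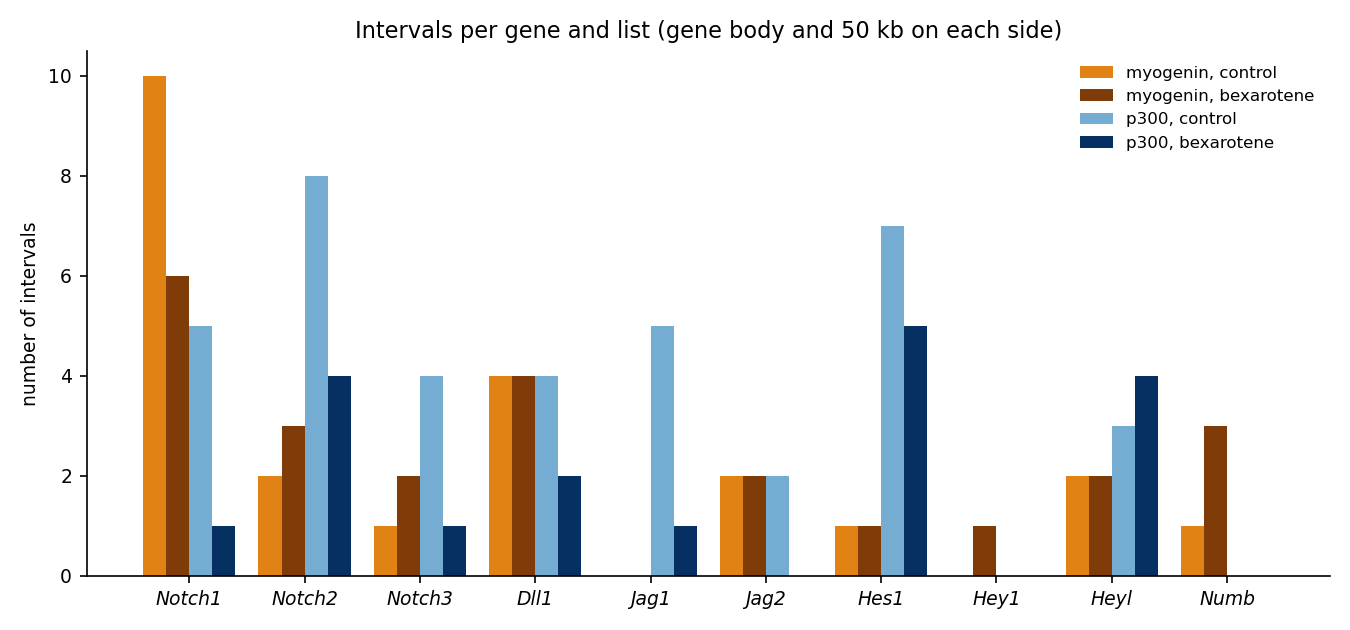
Number of intervals per gene and list. Each gene has 4 bars, myogenin in control and bexarotene and p300 in control and bexarotene, 1 library each and therefore without error bars. Notch1 has the tallest myogenin bars (10 and 6), Notch2 the tallest p300 bar in control (8) and Hes1 the tallest in bexarotene (5), Jag1 lacks myogenin bars and Hey1 has a single bar.

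Among the ligands, Dll1 carried 4 of the 5 myogenin regions called in both conditions, and Jag2 the other. Dll1 (chr17:15504318-15513836, minus strand), the Delta ligand of myoblasts, had 4 myogenin intervals in control and 4 in bexarotene, which paired into 4 shared regions with no region called in 1 condition alone, and 4 and 2 p300 intervals. At least 4 myogenin intervals were found at 4.27% of all genes in control and 4.21% in bexarotene. Each of the 4 regions held 2 or more E-boxes. The region 18.68 kb downstream of the start was present in all 4 lists (myogenin 225 bp and 322 bp, p300 568 bp and 282 bp), and the region in intron 4, 3.92 kb from the start, was the longest in control (364 bp, and 333 bp in bexarotene) and overlapped a p300 interval of 159 bp in control alone. The intron 4 region was also centered 225 bp before the start of another annotated Dll1 transcript. Their E-boxes are shown in order along the chromosome, that is, from the most distant region toward the gene.
Dll1 downstream 25.6 kb, chr17:15487286-15487345: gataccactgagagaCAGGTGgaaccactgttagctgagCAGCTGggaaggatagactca
Dll1 downstream 22.9 kb, chr17:15489943-15490039: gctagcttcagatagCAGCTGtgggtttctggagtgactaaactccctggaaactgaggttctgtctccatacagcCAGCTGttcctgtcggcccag
Dll1 downstream 18.7 kb, chr17:15494221-15494269: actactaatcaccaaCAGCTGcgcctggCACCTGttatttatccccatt
Dll1 intron 4, chr17:15508980-15509071: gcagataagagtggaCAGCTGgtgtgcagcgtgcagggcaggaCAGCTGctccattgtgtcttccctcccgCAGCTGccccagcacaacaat
The spacing between neighboring E-boxes was 18, 55 and 7 bp in the first 3 stretches and 22 bp for both gaps in intron 4. The 7 bp pair, the closest of them, was the one where p300 was called in both conditions. At other genes, a gap of 6 bp was found both in a Heyl region with p300 in both conditions and in a Numb region without p300. A link between spacing and p300 was not tested.

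Jag1 and Jag2, the Jagged ligands, differed from Dll1. Jag1 (chr2:136907192-136942380, minus strand) had no myogenin interval in either list, and 5 p300 intervals in control and 1 in bexarotene. The longest was a control-only interval of 479 bp in intron 2, 2.19 kb from the start, and the one called in both conditions (212 bp and 199 bp) lay 67.1 kb downstream of the start. Jag2 (chr12:114146801-114167706, minus strand) had 2 myogenin intervals in each list and 2 and 0 p300 intervals, but all 5 of its regions were nearer to the start of another gene, Gpr132 or Nudt14, than to that of Jag2. The shared one (myogenin 323 bp and 303 bp, p300 205 bp in control alone) was 1277 bp from the start of Gpr132 and had E-boxes 41 bp apart.
Near Gpr132, downstream of Jag2, chr12:114100368-114100450: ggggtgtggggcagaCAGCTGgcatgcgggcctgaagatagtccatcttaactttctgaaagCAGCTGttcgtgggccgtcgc

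The repressors Hes1 and Heyl had 8 of the 13 p300 regions called in both conditions. Over Hes1, Hey1 and Heyl, 8 of 11 p300 regions were shared, whereas 3 of 20 were at the receptors and 2 of 12 at the ligands, beside 30.1% of all p300 regions. These counts were not tested, as the regions come from 2 libraries and cluster at few genes. Hes1 (chr16:30064470-30067882, plus strand), the canonical Notch target, had 7 p300 intervals in control and 5 in bexarotene, and all 5 in bexarotene overlapped one in control. At least 5 p300 intervals in bexarotene were found at 1.97% of all genes. In order along the chromosome, the first shared regions measured (control, then bexarotene) 454 bp and 359 bp at 40.4 kb upstream, and 554 bp and 517 bp across the edge where the gene body begins. The next measured 201 bp and 302 bp at the start of the coding transcript, and 247 bp and 219 bp in the coding part of exon 4. The last measured 805 bp and 199 bp at 5.26 kb past that start. The region at the start of the coding transcript was thus the only one of the 5 in which the bexarotene interval was the longer. Its part before the start of the coding transcript holds the letters GTGGGAA, the consensus of Rbpj, at chr16:30065345-30065351, shown in capitals.
Hes1 promoter, chr16:30065294-30065425: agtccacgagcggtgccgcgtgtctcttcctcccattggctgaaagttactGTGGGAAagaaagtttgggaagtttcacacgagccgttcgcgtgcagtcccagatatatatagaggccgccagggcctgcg

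Myogenin was called once per condition at Hes1, and at different places. The control interval (172 bp) lay in the coding part of exon 4, and the bexarotene interval (168 bp) lay 1.05 kb before the start of the coding transcript, within the p300 region of 554 bp and 517 bp and 92 bp before the start of another Hes1 transcript. Both had the smallest length in their list. Neither held a myogenic E-box as defined above, and the bexarotene interval held a single E-box of another core, CACGTG, shown in capitals.
Hes1 upstream, bexarotene, chr16:30064398-30064461: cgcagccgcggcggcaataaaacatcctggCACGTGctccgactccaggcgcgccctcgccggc

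At Heyl (chr4:122910799-122927118, plus strand), a Hes-related repressor that is a Notch target in muscle cells, both myogenin regions were shared and both overlapped p300 in both conditions. The distal site, 7.44 kb before the start, measured 280 bp and 240 bp for myogenin and 542 bp and 282 bp for p300, and the proximal site, at 5.16 kb, 264 bp and 213 bp for myogenin and 449 bp and 213 bp for p300. They are shown whole across their E-boxes, because Heyl had a pair of sites present in all 4 lists. In the distal site the letters TGAGTCA, a bZIP (AP-1) consensus, stand just before the first E-box and are in capitals too, and in the proximal site the gaps between the 3 E-boxes were 17 and 6 bp.
Heyl distal, chr4:122903332-122903502: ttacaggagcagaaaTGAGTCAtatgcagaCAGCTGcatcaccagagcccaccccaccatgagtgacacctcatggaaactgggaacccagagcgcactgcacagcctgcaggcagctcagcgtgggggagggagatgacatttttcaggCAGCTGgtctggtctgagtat
Heyl proximal, chr4:122905629-122905699: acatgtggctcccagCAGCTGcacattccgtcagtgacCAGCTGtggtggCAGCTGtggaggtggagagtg
The third shared p300 region of Heyl (333 bp and 273 bp) lay in intron 1, centered 48 bp before the start of another Heyl transcript, and a bexarotene-only p300 interval (323 bp) lay 61 bp from the start of Pabpc4 and is assigned to Heyl by distance alone. Hey1 (chr3:8663362-8667039, minus strand), the third repressor, had a single interval in all 4 lists, a bexarotene myogenin interval of 168 bp in the coding part of exon 5 that held no such E-box.

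Numb (chr12:85134984-85262884, minus strand), which is inherited unequally by dividing satellite cells and directs Notch to degradation, had 1 myogenin interval in control, 3 in bexarotene and no p300 interval. The region called in both conditions (348 bp and 310 bp) was the longest of the factor at Numb, lay in intron 3, 72.9 kb from the first start and 6703 bp before an inner one, and held 5 E-boxes with gaps of 6, 26, 79 and 44 bp. A bexarotene-only interval of 215 bp lay at the promoter, 576 bp before the start, without such an E-box.
Numb intron 3, chr12:85189970-85190183: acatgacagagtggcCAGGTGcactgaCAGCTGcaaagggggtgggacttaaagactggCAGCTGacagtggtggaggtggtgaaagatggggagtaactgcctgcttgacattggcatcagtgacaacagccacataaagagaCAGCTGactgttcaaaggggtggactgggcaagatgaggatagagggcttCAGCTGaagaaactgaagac

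Places where myogenin and p300 overlapped numbered 9, spread over Notch1, Notch2, Dll1, Jag2, Hes1 and Heyl. Thus 6 of the 10 genes had one within 50 kb, where 18.3% of all genes did. The 9 myogenin regions were 25.7% of the 35 (14.2 to 42.1), against 34.7% of all myogenin regions, so the 10 genes were not set apart by this share. Of the 9 places, 4 had an interval in all 4 lists, at Notch1, Dll1 and the pair at Heyl (44.4%, interval 18.9 to 73.3), against 27.7% of 3318 such places in all. Myogenin regions that overlapped p300 were shared in 6 of 9 cases, and those that did not in 6 of 26 cases (46.0% and 23.5% genome-wide).

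Within 1 kb of a start of the 10 genes, 4 regions were found when coding transcripts were used and 11 with all annotated transcripts. For coding transcripts, p300 was found at 3 of the 10 genes (12.8% of all genes), Notch2 in control alone, Hes1 in both conditions and Dll1 in bexarotene alone, and myogenin at 1 gene (8.05% of all genes), Numb in bexarotene alone. Of the 35 myogenin regions 34 lay farther than 1 kb from any coding start of the 10 genes. All 35 fell in the gene bodies in 12 cases, upstream in 12 and downstream in 11, and 24 of the 35 had one of the 10 genes as the nearest coding start. For p300 the counts were 20, 11 and 12 of 43, with 37 nearest to one of the 10 genes.

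The letters of E-boxes and of other binding sites were counted on both strands in the mm9 sequence. A myogenic E-box was found no farther than 50 bp from the center in 22 of the 35 myogenin regions (62.9%, interval 46.3 to 76.8), against 50.2% of all myogenin regions. The counts were 10 of 12 for shared, 7 of 12 for bexarotene-only and 5 of 11 for control-only regions, and the genome-wide shares had the same order (69.8%, 52.0% and 27.8%). Of the p300 regions 15 of 43 had such an E-box (34.9%, interval 22.4 to 49.8), against 19.9% of all p300 regions, which lies outside the interval. Within 100 bp the share was 41.9% (28.4 to 56.7) against 32.7%, which lies inside it, so that the difference depends on the window. Within 50 bp, it lay near the center of 8 of 9 p300 regions that overlapped myogenin and 7 of 34 that did not (47.0% and 15.6% genome-wide).

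The Rbpj letters GTGGGAA were found within 100 bp of the center of 8 of the 43 p300 regions (18.6%, interval 9.74 to 32.6), against 5.27% of all 23903 p300 regions (5.0 to 5.56), and of 1 of the 35 myogenin regions (2.86%, 0.506 to 14.5) against 5.5% of all. In the same gene windows, 331 of 7288 consecutive tiles of 200 bp held these letters (4.54%). This count was looked at among several motifs, no test was made of it, and the regions are not independent. The 8 regions belonged to 6 genes, Notch1 with 2, Notch3, Dll1, Jag1 with 2, Hes1 and Heyl. Of these regions 4 were control-only, 3 shared and 1 bexarotene-only, none overlapped a myogenin interval, and 1 of 8 had a myogenic E-box within 50 bp of its center. The sites other than that of Hes1, given above, are shown on the plus strand with GTGGGAA in capitals, which reads TTCCCAC where the consensus lies on the minus strand.
Notch1 intron 1, control-only, chr2:26349966-26350083: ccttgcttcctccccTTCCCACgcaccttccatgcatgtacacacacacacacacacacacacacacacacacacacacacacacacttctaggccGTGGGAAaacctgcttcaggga
Notch1 upstream 9.17 kb, control-only, chr2:26381333-26381369: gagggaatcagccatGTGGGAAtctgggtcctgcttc
Notch3 intron 1, control-only, chr17:32301317-32301353: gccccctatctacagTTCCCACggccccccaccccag
Dll1 exon 1, bexarotene-only, chr17:15512659-15512685: gaggggcgcgGTGGGAAcggtggtggc
Jag1 downstream 67.1 kb, shared, chr2:136875175-136875307: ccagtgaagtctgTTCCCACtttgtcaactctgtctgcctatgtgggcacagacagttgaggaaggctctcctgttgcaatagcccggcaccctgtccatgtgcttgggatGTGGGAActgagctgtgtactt
Jag1 downstream 48.9 kb, control-only, chr2:136893375-136893411: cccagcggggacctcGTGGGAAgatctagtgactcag
Heyl intron 1, shared, chr4:122916869-122916905: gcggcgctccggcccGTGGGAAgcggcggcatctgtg
The region in intron 1 of Notch1 and the shared region of Jag1 hold 2 sites each, 1 in either orientation. In promoter windows of 300 bases (250 before and 50 after the start), the letters occurred at Notch1, Hes1 and Hey1, and at 5.98% of 22359 coding genes. A match of letters is not a measurement of binding, and Rbpj was not measured.

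For other motifs the shares near the 10 genes were set beside those of all regions at 100 bp. Within 100 bp of the center of the p300 regions, TGACTCA or TGAGTCA (bZIP) was found in 23.3% against 26.7% of all p300 regions, TGTGGT (Runx) in 25.6% against 30.2%, GGAATG (Tead) in 14.0% against 18.3%, CACNAG (the N-box of Hes proteins) in 34.9% against 35.4%, and AGGTCA, the half-site of RXR dimers, in 6.98% against 10.9%. In the myogenin regions AGGTCA was found in 11.4% against 13.3%. Each of these genome-wide shares lay within the Wilson interval of the share near the 10 genes.

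**Figure D4:**
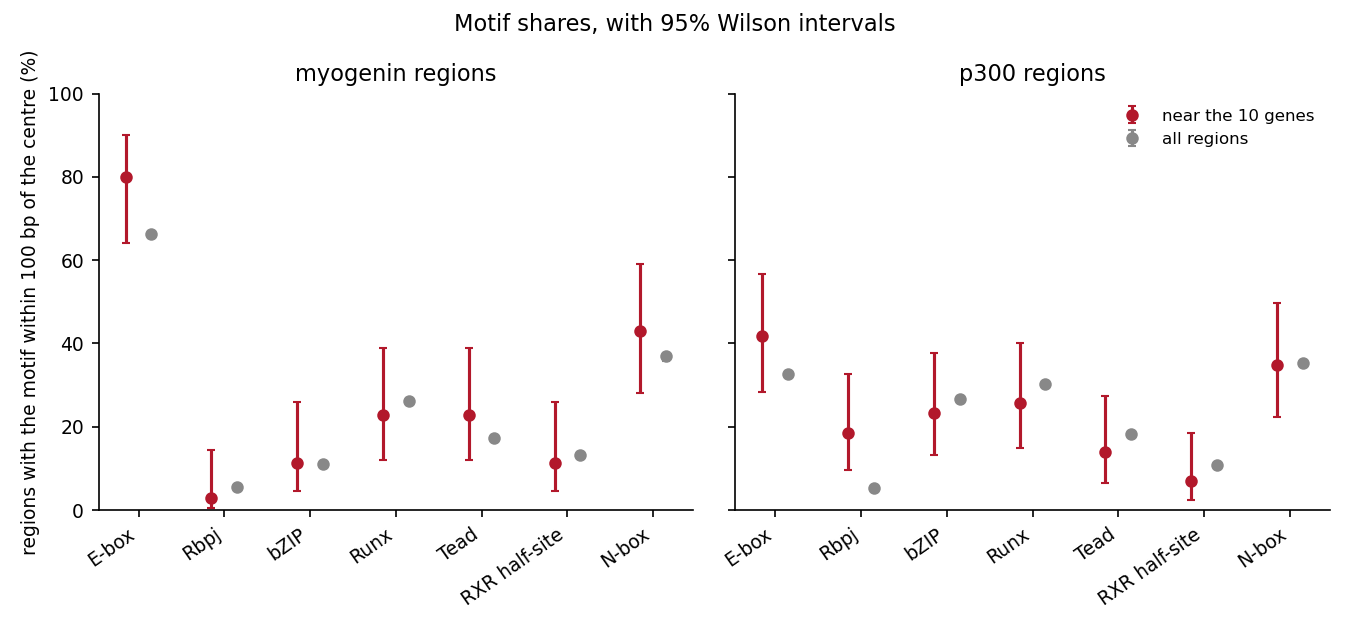
Share of regions with each motif within 100 bp of the center, in percent, for myogenin (left) and p300 (right). Red points are the 35 and 43 regions near the 10 genes, grey points all 9553 and 23903 regions, and bars 95% Wilson intervals, which cover counting error only. For p300 the interval of the Rbpj motif near the 10 genes (9.74 to 32.6) lies above the share of all regions (5.27). For myogenin the share of the E-box is 80.0, with an interval (64.1 to 90.0) that holds the 66.2 of all regions.

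The limit of 50 kb left out a place at Hes1. The outermost intervals inside it were those near Gpr132, with edges 46.2 and 46.3 kb from the Jag2 gene. The first outside it were 4 intervals 54.3 to 54.5 kb from the Hes1 gene, 1 in each list (myogenin 375 bp and 358 bp, p300 503 bp and 247 bp).

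A list of 38 further genes of the pathway, or related to it, was also read (receptor, ligands, nuclear complex, target repressors and regulators, proteases, glycosyltransferases and ubiquitin ligases). A myogenin interval was found at 22 of the 38 in control and 17 in bexarotene, beside 32.3% and 32.9% of all genes. A p300 interval was found at 26 and 18, beside 53.8% and 35.2%. Shared myogenin regions were seen at 10 of the 38 (17.5% of all genes), and overlap of myogenin with p300 also at 10 (18.3%). Rbpj, the DNA-binding subunit of the complex, had 2 myogenin intervals in control and 6 in bexarotene, with 6 and 4 of p300. The Mastermind coactivator Maml3 had 2 and 4 of myogenin and 9 and 7 of p300, and Mib1, the ubiquitin ligase that activates ligands, 3 and 5 of myogenin and 2 of p300 in each list. Among the genes that went the other way, the receptor Notch4 had 4 and 1 of myogenin, Spen 4 and 2, and the fucosyltransferase Pofut1 2 and 0. Pofut2, a related enzyme that was counted in the list but is not an established part of the pathway, had 5 and 2. Of the 38 genes, those with fewer myogenin intervals in bexarotene outnumbered those with more. Hes7, the oscillating repressor of somites, had 0 and 3 myogenin intervals. Dll3, Hes5, Aph1a, Dtx1 and Mib2 had no interval in any list.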

How the data were processed

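Myogenin and p300 were measured by ChIP-seq with single-end reads in C2C12 cells. The authors aligned the reads to mm9 (BWA-MEM for myogenin, Bowtie for p300), marked and removed duplicate reads (Picard), and ran the HOMER peak finder in its factor style, library by library. The deposited lists hold the start and end of each peak, with no counts or scores, so the authors' threshold could not be changed, and the depth of each library is not given in the sources used here. Columns of 4 samples were used, and the input and H3K27me3 libraries were not analysed here.

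The members and gene lists were chosen with earlier results of these data known. All 10 genes are named with their counts. The regions described are those within 1 kb of a coding start of the 10 genes, those where myogenin and p300 overlapped, and the longest of each factor and gene, with others that carried E-boxes or the Rbpj letters. One region upstream of Notch3 is counted but not reported here. The Rbpj comparison, the alternatives for it and for E-boxes in p300 regions, and the densities without Notch1, were chosen after seeing the data. Intervals were placed by GENCODE vM1, merged at 1 bp of overlap, and printed counted from 1. Motifs were matched within 50 bp (E-box) or 100 bp of the center, and the myogenic E-box letters are a subset of CANNTG. Shares carry 95% Wilson intervals. Functions were tested on simulated data. Python 3.11.15, numpy 2.4.6, pandas 2.3.3, scipy 1.17.1, pysam 0.24.0 and matplotlib 3.10.9 were used. Alternatives changed the window, the assignment, the length filter, the overlap rule, the motif window and the distance to the start.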

Additional observations from a re-analysis of the deposited data

How the results depend on the processing

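Of 98 alternatives to 20 results, 86 stayed within 1.5 times the count or density or within the interval of the share, and 12 did not. With a window of 10 kb the myogenin intervals fell to 11 in control and 14 in bexarotene, and with intervals longer than the smallest of their list to 12 and 13, while p300 in control fell to 25. The share of myogenin regions with the E-box rose to 80.0% (64.1 to 90.0) within 100 bp and 77.1% (61.0 to 87.9) over the whole interval. All myogenin regions had 66.2% and 67.0%, which lie within these Wilson intervals. The bZIP share of p300 regions fell to 11.6% within 50 bp, where all p300 regions had 17.7%. The share with GTGGGAA fell to 9.3% within 50 bp, where all p300 regions had 2.63%, and was 18.6% over the whole interval, where all had 7.14%. Regions near a start of the 10 genes rose from 4 to 12 at 2500 bp and to 11 with all transcripts. No paired analysis was possible because each condition had 1 library. Without Notch1, myogenin intervals per Mb in control fell from 15.8 to 10.0. The cause of these changes was not tested, and the lists hold no signal or depth to weigh single peaks.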
